A study of Mus musculus and Homo sapiens with 10 samples.

Results

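The clustered protocadherin genes encode cell-surface adhesion proteins and lie in alpha, beta and gamma groups that follow each other on the chromosome. Here they are described through every called peak that overlaps their loci, taken as chromosome 18 from 37080000 to 38010000 of the mouse build mm9 (930 kb) and chromosome 5 from 140150000 to 140900000 of the human build hg19 (750 kb). The choice was made by position alone. It gave 107 of the 208002 peaks in 10 lists, of which 83 lie in the mouse locus and 24 in the human locus.

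Each alpha and gamma protocadherin carries a variable first exon with its own promoter, spliced to exons shared by its group, whereas the beta genes are single-exon genes. Neurons switch on a small, varying subset of these promoters, which gives each cell a surface identity of its own. The DNA-binding factor CTCF and the cohesin subunit RAD21 link chosen promoters to enhancers, and the methyltransferase SETDB1 and the chromatin protein SMCHD1 are known repressors of the clusters. The RefSeq gene table of another mouse build (GRCm38), used for names and neighbours only, lists 14 alpha, 22 beta and 21 gamma genes as protein-coding, from Pcdha1 to Pcdhgc5, and Pcdhgb8 among them as a transcribed pseudogene. Slc25a2, a mitochondrial carrier gene, and Taf7, which encodes a subunit of the general transcription factor TFIID, are listed within that order, Zmat2 before it and Diaph1, a formin gene, after it. No annotation of mm9 or hg19 was used here, so peaks were not assigned to single genes and are given by position.

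The peaks come from chromatin immunoprecipitation followed by sequencing (ChIP-seq) in exponentially growing cells of 3 lines. The mouse lists are from NIH3T3, an immortalized fibroblast line, and cover the Pol I factor UBF, the Pol I subunit POLR1A (RPA194), Pol II phosphorylated at serine 5 of its C-terminal repeat, H3K4me3, H3K9ac, H4 hyperacetylation and H3K9me3. The human lists are UBF and Pol I in HMEC, mammary epithelial cells immortalized with TERT, and UBF in HMLER, an HMEC derivative that expresses SV40 large-T, TERT and an oncogenic HRAS allele (HRASV12G) and forms tumours in nude mice. The design names 2 biological replicates of NIH3T3 UBF and genomic DNA inputs as reference. Each antibody and line has 1 list here, with no scores, so there was no replicate error and no test between groups, and the depth behind a peak is unknown. Where shares of peaks are given with an interval, it is the exact (Clopper-Pearson) 95% binomial interval, which covers counting error only.

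In NIH3T3 cells the locus held more H3K9me3, a mark of silent chromatin, than the 1 Mb on each side and the genome. It held fewer marks of active chromatin than these flanks, though not fewer than the typical region of its length. The H3K9me3 contrast does not extend to the 100 kb just before the locus, where 10 peaks lay more densely than inside it. H3K9me3 held 33 peaks in the cluster, 14 in the 1 Mb before it and 3 in the 1 Mb after it. The density inside was 35.5 peaks per Mb, against 8.71 over the genome. H3K4me3, a mark of active promoters, held 12 peaks in the cluster, 44 before and 37 after. H3K9ac, found at active promoters and enhancers, held 11, 40 and 32 peaks, and H4 hyperacetylation, a mark of open chromatin, held 12, 53 and 40. Pol II, the polymerase of protein-coding genes, held 15, 40 and 17 peaks. The contrast with the flanks was therefore opposite in sign for H3K9me3 and for the active marks on both sides of the locus, while for Pol II the count after the cluster was close to that within it.

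**Figure D1:**
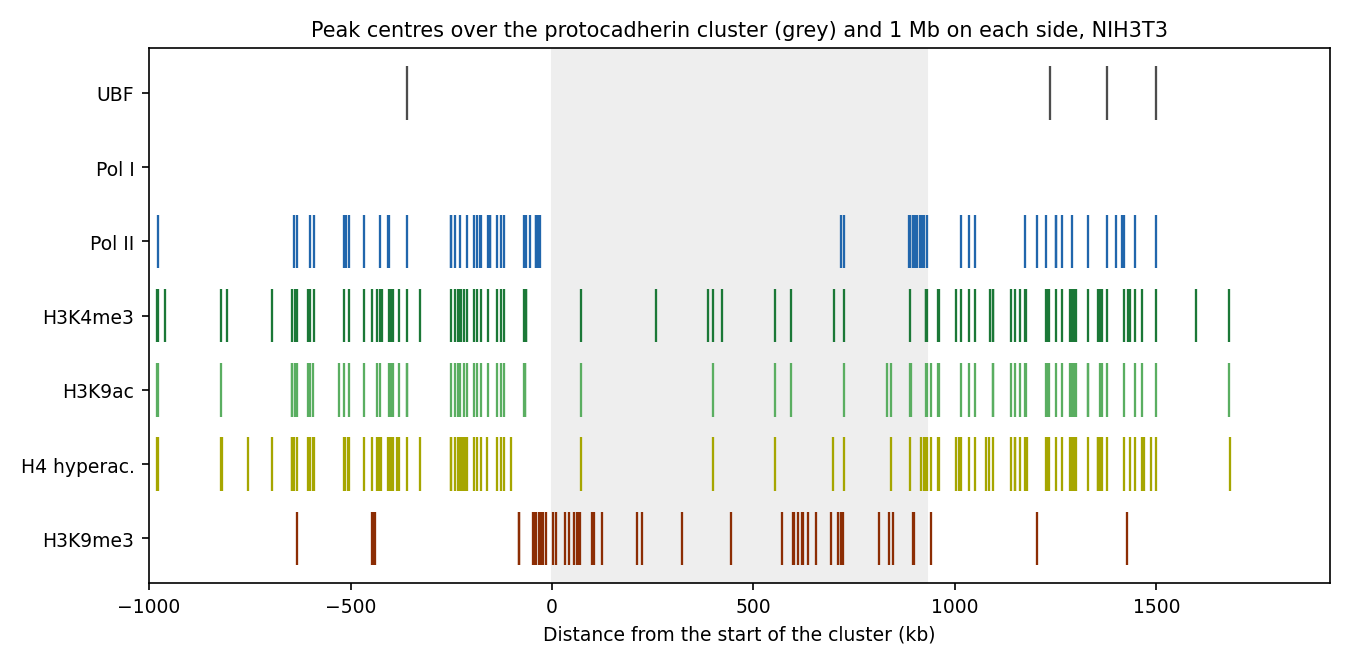
Peak centres of the 7 NIH3T3 lists (rows) against the distance from the start of the cluster in kb, with 1 Mb on each side; the grey band is the cluster, and each line is 1 peak. The 33 H3K9me3 peaks lie mostly in the outer parts of the band and continue just before it, the active marks are thin inside it, and 13 of its 15 Pol II peaks crowd into the last 80 kb.

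In covered bases the same picture held. H3K9me3 peaks covered 37.8 kb, or 4.06% of the cluster, against 1.69% of the flank before, 0.281% of the flank after and 1.06% of the genome. The share was 4.12 times that of both flanks together. This ratio was 2.19 with flanks of 0.5 Mb, and 10 of the 14 H3K9me3 peaks before the cluster lie within 100 kb of its edge. For H3K4me3 the covered share was 1.92% in the cluster, 7.70% before, 6.51% after and 2.12% in the genome, which is 0.270 times the flanks. H3K9ac stood at 1.59% and 0.260 times the flanks, and H4 hyperacetylation at 1.46% and 0.213 times. Set against the genome rather than the flanks, these marks covered 0.905, 0.775 and 0.608 times the average share, so most of their contrast lies in flanks that are themselves rich in active marks. Pol II covered 1.12% of the cluster, 0.506 times the flanks and 1.11 times the genome.

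**Figure D2:**
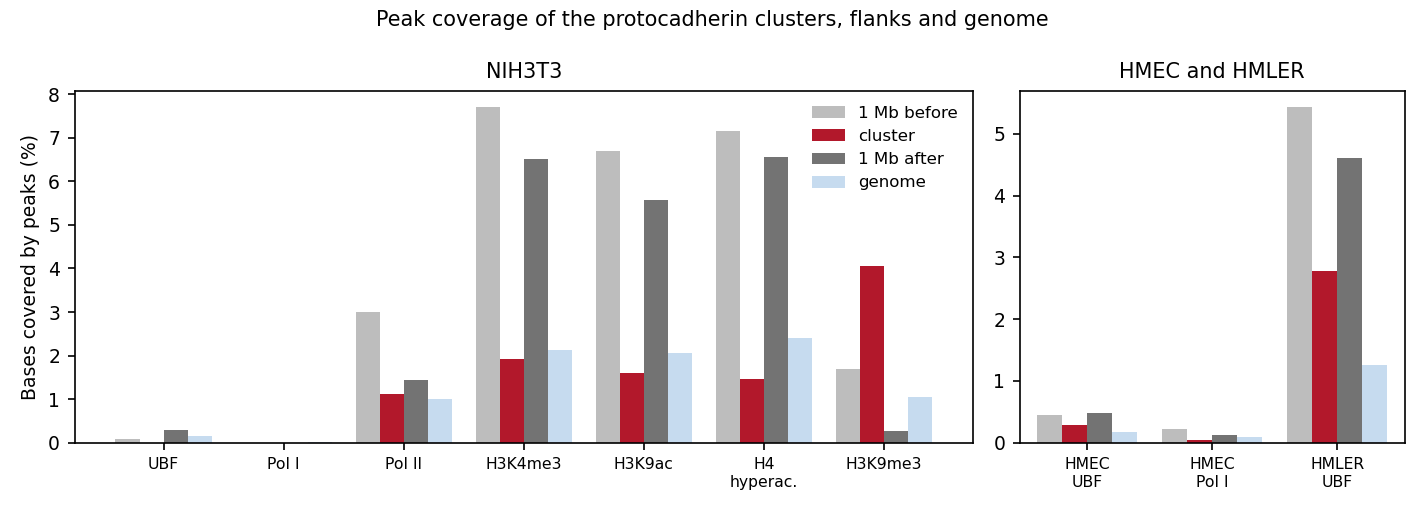
Bases covered by peaks (%, vertical axis) in the 1 Mb before the cluster, the cluster, the 1 Mb after it and the genome, for each list; every bar is 1 list, with no error. In NIH3T3 only H3K9me3 is higher in the cluster (4.06%) than in either flank, and in the human panel the HMLER UBF share is 2.78% in the cluster and 5.43% and 4.61% beside it.

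A count of H3K9me3 peaks this high was uncommon for a region of this size. Of 2827 consecutive 930-kb windows laid along the mouse chromosomes, 38 (1.34%) held at least 33 H3K9me3 peaks, and the median window held 6. The peaks of the cluster were of ordinary width, with a median of 942 bp against 1050 bp in the genome, and 3 of them were 2 kb or wider. When each list was limited to its wider 50%, the cluster kept 12 H3K9me3 peaks and 7.11% of windows held as many. For the active lists the cluster was above the median window. Its 12 H3K4me3 peaks stood against a median of 6, with at least as many in 32.0% of windows, its 11 H3K9ac peaks against 5 (34.1%), and its 12 H4 hyperacetylation peaks against 8 (41.5%). Its 15 Pol II peaks stood against 4 (22.0%). With peaks less than 1000 bp apart joined, the Pol II count of the cluster was 10, and the windows were not recounted. In peaks per Mb, H4 hyperacetylation was below the genome (12.9 in the cluster, 15.6 in the genome), while H3K4me3 (12.9, 10.5), H3K9ac (11.8, 10.7) and Pol II (16.1, 11.4) were above it. In the 38 windows with at least 33 H3K9me3 peaks the median number of H3K4me3 peaks was 21, and 14 of them held no more than the 12 of the cluster.

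H3K9me3 was not spread evenly along the locus. With stretches chosen after the positions were seen, the first 150 kb held 11 peaks (6.92% covered), the 400 kb from 150 to 550 kb held 4 (0.931%) and the rest held 18 (6.23%). At least 1 H3K9me3 peak centre fell in 12 of the 19 consecutive bins of 50 kb. Neighbouring H3K9me3 peaks lay a median of 12.2 kb apart, with 15 of 32 gaps under 10 kb. The 10 peaks in the 100 kb before the cluster join the first stretch, so H3K9me3 density did not begin at the edge of the locus. Peaks were denser in that 100 kb than in the first 150 kb or the cluster as a whole. The higher share in the cluster therefore holds against flanks of 0.5 Mb or more, not against the sequence next to it. The longest gap between H3K9me3 peaks ran over 125 kb, from 445 to 570 kb after the start of the cluster. The longest stretch without a peak of any NIH3T3 list lay inside that gap, from 37525486 to 37633064 (108 kb).

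**Figure D3:**
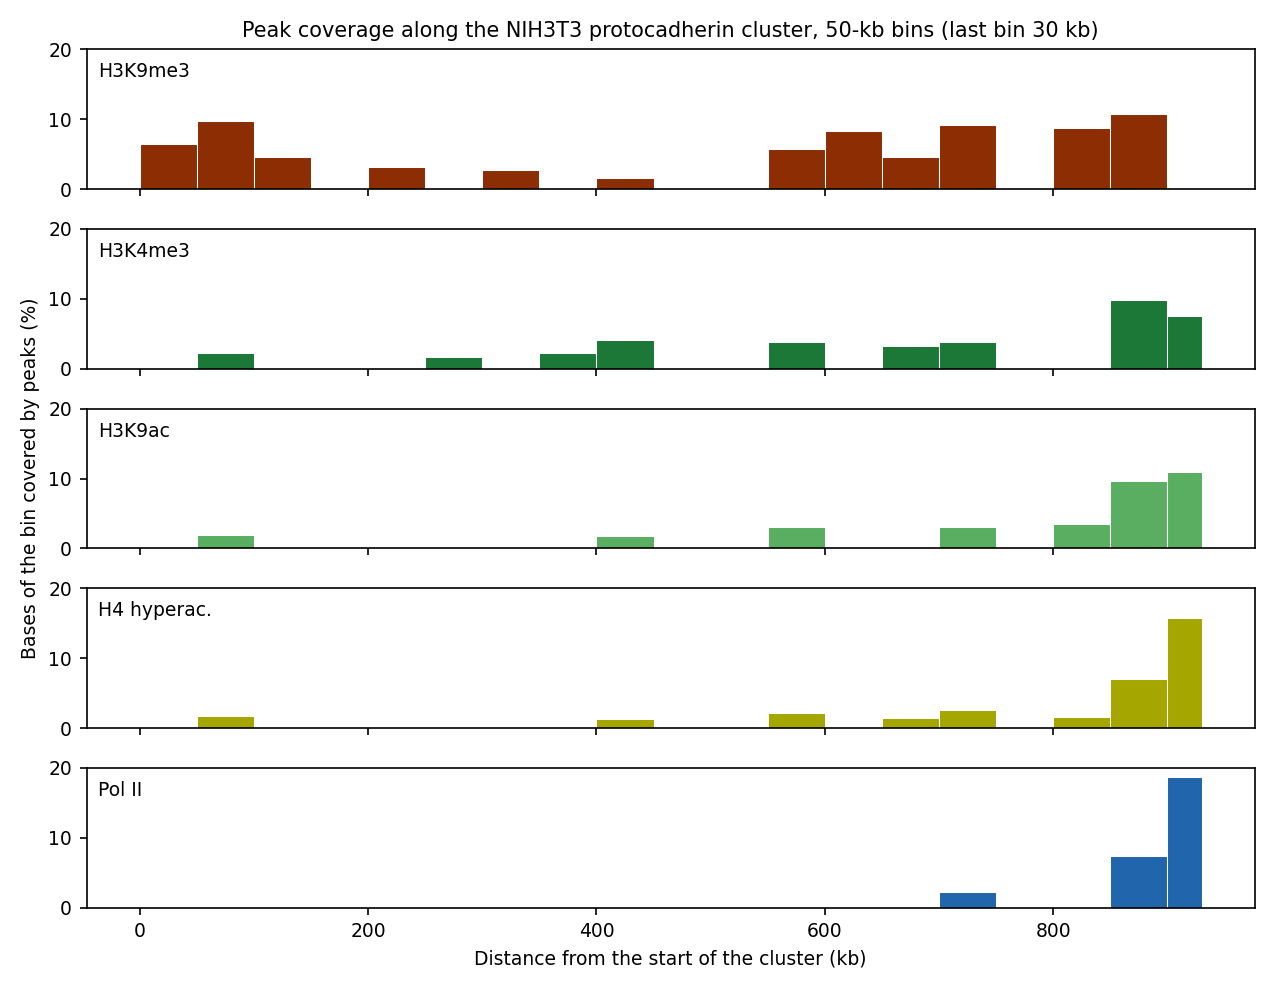
Bases covered by peaks (%, vertical axes) in consecutive 50-kb bins against the distance from the start of the NIH3T3 cluster in kb; the last bin is 30 kb. H3K9me3 is present in both outer parts and thin in the middle, whereas Pol II has no covered base before the bin that starts at 700 kb and reaches 18.7% in the last bin.

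The widest H3K9me3 peak of the cluster ran from 37973812 to 37977954 (4142 bp), near the end of the locus. The next were from 37925357 to 37927622 (2265 bp), from 37789668 to 37791762 (2094 bp), from 37140631 to 37142250 (1619 bp) and from 37735098 to 37736694 (1596 bp). Of these 5, 4 lie in the part after 550 kb and 1 in the first 150 kb. Among them the widest overlapped a Pol II peak, from 37974951 to 37975340 (389 bp), which it contained in full, and the other four met no peak of another list.

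Most H3K9me3 peaks of the cluster met no Pol II or active-mark peak, though the interval of that share reaches the whole-list value. Of the 33 H3K9me3 peaks, 4 (12.1%, 3.4 to 28.2) overlapped Pol II or an active mark, against 26.4% of the whole list and 6 of 17 in the flanks. With H3K4me3 the count was 1 of 33 (3.03%, 0.0767 to 15.8), and 16.7% of the whole H3K9me3 list overlapped it, a value just above that interval. With Pol II it was 4 of 33, also 12.1%, against 14.9%. Seen from the active side, 1 of 12 H3K4me3 peaks (whole list 13.9%), 1 of 11 H3K9ac peaks (12.8%) and 1 of 12 H4 hyperacetylation peaks (13.8%) overlapped H3K9me3, all at the same place. These counts are near their background. Pol II overlapped H3K9me3 at 4 of 15 peaks (26.7%, 7.79 to 55.1), with 13.2% in the whole list inside the interval.

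The place with both marks lies 722 kb after the start. There an H3K9me3 peak from 37802703 to 37803563 sat inside an H3K4me3 peak from 37802432 to 37804351 (1919 bp), with 860 bp shared. H3K9ac from 37802827 to 37804355 and H4 hyperacetylation from 37803293 to 37804566 overlapped the same H3K9me3 peak by 736 and 270 bp. The Pol II peak from 37803562 to 37804161 met it by 1 bp, a contact that depends on how the files count their bases. The other overlaps of Pol II with H3K9me3 were from 37797823 to 37798347, inside an H3K9me3 peak (524 bp shared), and from 37979726 to 37980147 (169 bp shared), besides the contained peak above.

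Joining overlapping Pol II, H3K4me3, H3K9ac and H4 hyperacetylation peaks gave 24 active sites in the cluster and 115 in the flanks. Pol II together with all 3 active marks was found at 3 of the 24 sites (12.5%), against 35 of 115 flanking sites (30.4%) and 27.1% of 50986 sites in the genome. All 3 marks without Pol II were found at 4 sites (16.7%, flanks 22.6%, genome 14.7%). H3K4me3 alone was found at 3 (12.5%, flanks 5.22%, genome 3.87%) and Pol II alone at 8 (33.3%, flanks 13.0%, genome 19.3%). Alone refers to these 4 lists only, and some of the Pol II sites lie on H3K9me3 peaks. Most of the 8 lie close together in the last 80 kb, so their share does not describe the whole cluster. H3K9me3 lay on 4 of the 24 sites (16.7%), against 6.09% of the flanking sites and 11.8% of those in the genome. The other 20 stood between 3 and 56.6 kb from the nearest H3K9me3 peak, with a median of 14.2 kb.

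The first 850 kb and the last 80 kb of the locus, a boundary chosen after the positions were seen, held 12 active sites each. Pol II was present at 2 of the 12 in the first part and at 11 of the 12 in the second. Sites were built from Pol II peaks too, so a site of Pol II alone has Pol II by construction. Of all 24 sites 8 are of this kind, most of them in the last 80 kb, so these counts are partly fixed in advance. The 8 sites before 700 kb all had H3K4me3 and none had Pol II. Of these, those from 37151863 to 37152972, from 37479960 to 37481330 and from 37633064 to 37634205 carried all 3 active marks. Those from 37337770 to 37338621, from 37467004 to 37468087 and from 37501479 to 37502236 carried H3K4me3 alone. The site from 37673101 to 37673897 had H3K4me3 and H3K9ac, and that from 37777727 to 37779393 had H3K4me3 and H4 hyperacetylation. These 8 sites were between 757 and 1666 bp wide, and the widths of sites outside the cluster were not computed.

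The end of the locus looked different. Pol II placed 13 of its 15 peaks in the last 80 kb, where it covered 11.7% of the bases, against 0.132% of the first 850 kb. H3K4me3 covered 8.95% there and 1.25% before, H3K9ac 10.1% and 0.792%, H4 hyperacetylation 10.3% and 0.629%, and H3K9me3 6.71% and 3.81%. By count H3K9me3 did not rise there: 31 of its peaks lay before and 2 (6.06%) in the last 80 kb. One of these 2 is the widest of the cluster (4142 bp), and H3K9me3 covered 0% of the last 30 kb. The widest H3K4me3 peak of the cluster, from 37965305 to 37970190 (4885 bp), was also the place of the widest H3K9ac peak (37965420 to 37969387, 3967 bp) and the widest H4 hyperacetylation peak (37965437 to 37968936, 3499 bp). It held 3 Pol II peaks, among them the widest (37966819 to 37968222, 1403 bp) and the third in width (37965591 to 37966793, 1202 bp). The Pol II peak second in width ran from 38001910 to 38003183 (1273 bp). Between these places lay a row of Pol II peaks without H3K4me3.

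The second H3K9ac peak in width (38008700 to 38011898, 3198 bp) and the second H4 hyperacetylation peak (38009365 to 38011782, 2417 bp) cross the end of the locus, and the third in width of each mark lies just before it (38006320 to 38008281 and 38007093 to 38008566). The third H3K4me3 peak in width, from 37777743 to 37779393 (1650 bp), lies earlier. Whether the peaks of the last 80 kb belong to a gamma protocadherin or to the neighbouring gene was not tested. Without these 80 kb, the Pol II count fell to 2 and its covered share to 0.0595 times the flanks. For H3K4me3, H3K9ac and H4 hyperacetylation the ratios fell to 0.176, 0.129 and 0.0918.

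The lists of active chromatin (Pol II included) form 12 ordered pairs. The share of peaks that overlapped was lower in the cluster than in the whole list for 9 of them and higher for 3, and in each the whole-list value lay inside the wide interval of the cluster. Of the 12 H3K4me3 peaks, 3 (25.0%, 5.49 to 57.2) overlapped Pol II, against 53.2% of the whole list and 46.9% in the flanks. H3K9ac met 8 of 12 (66.7%, 34.9 to 90.1; whole list 84.9%), and H4 hyperacetylation also 8 of 12 (whole list 87.2%). From the other side, 5 of 15 Pol II peaks (33.3%, 11.8 to 61.6) overlapped H3K4me3, against 60.8% of the whole list and 71.9% in the flanks (58.5 to 83.0). Of these 5, 3 lie in the same H3K4me3 peak, so the interval treats close neighbours as separate. Pol II met H3K9ac at 5 of 15 peaks (whole list 61.5%) and H4 hyperacetylation at 7 of 15 (46.7%, whole list 63.9%). Of the 11 H3K9ac peaks, 3 overlapped Pol II (27.3%, whole list 53.4%), 9 H3K4me3 (81.8%, whole list 87.2%) and 8 H4 hyperacetylation (72.7%, whole list 90.2%). The 3 higher pairs were those of the 12 H4 hyperacetylation peaks, of which 5 overlapped Pol II (41.7%, whole list 40.7%), 8 H3K4me3 (66.7%, whole list 65.6%) and 9 H3K9ac (75.0%, whole list 66.5%). The active peaks were also narrower than in the genome, with medians of 1120 bp for H3K4me3 (genome 1685 bp), 1038 bp for H3K9ac (1586 bp), 958 bp for H4 hyperacetylation (1197 bp) and 524 bp for Pol II (683 bp). In the same order, medians were 1403, 1370, 1035 and 635 bp in the flank before, also below the genome. In the flank after they were 1751, 1570, 1395 and 782 bp.

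**Figure D4:**
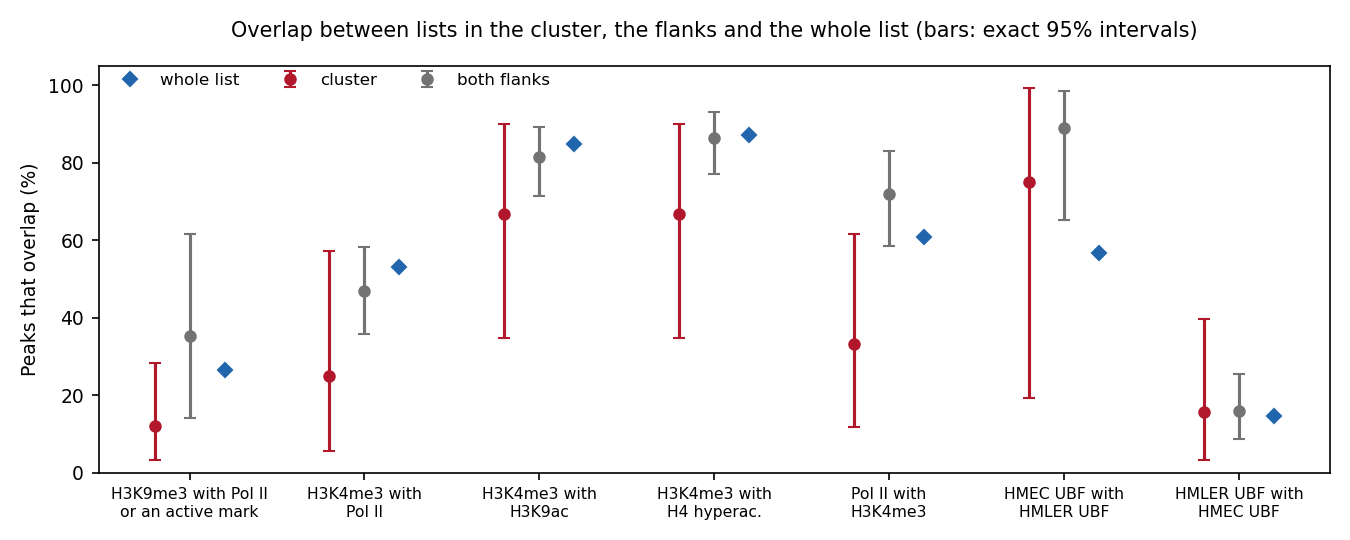
Share of peaks that overlap another list (%, vertical axis) in the cluster (red), in both flanks (grey) and in the whole list (blue), with exact 95% intervals over peaks for the first 2. The cluster intervals are wide and reach the whole-list value in the 7 pairs shown, which do not include H3K9me3 with H3K4me3 (3.03% against 16.7%); for HMLER UBF with HMEC UBF the 3 values nearly coincide (15.8%, 15.9% and 14.6%).

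Neither UBF, the architectural factor of the ribosomal RNA genes, nor Pol I had a peak in the mouse locus. The flanks held 4 UBF peaks, 1 before and 3 after, and no Pol I peak. All 4 UBF peaks overlapped H3K4me3, H3K9ac and H4 hyperacetylation (39.8 to 100 each), against 49.3%, 49.1% and 50.2% of the whole list. With Pol II 3 of the 4 overlapped (19.4 to 99.4, whole list 50.5%), and with H3K9me3 none (0 to 60.2, whole list 16.2%). Each whole-list value lies inside its interval, so 4 peaks do not set this region apart. The nearest stood 305 kb from the edge of the cluster, from 38314805 to 38315899. A region of this length without a UBF peak is common: 35.1% of the 930-kb windows held none, and 70.0% held no Pol I peak. Among the 38 windows with at least as many H3K9me3 peaks as the cluster, 5 had no UBF peak and the median was 2. A list of called peaks does not show binding below its threshold, so the 0 does not say that UBF was absent.

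In the human locus UBF did have peaks, in both lines, and fewer per Mb than in the flanks. HMEC held 4 UBF peaks in the cluster and 18 in the flanks, or 5.33 and 9 per Mb, with 3.12 over the genome. HMLER held 19 and 82, or 25.3 and 41.0 per Mb, with 10.6 over the genome. The covered share of the cluster was 0.625 times the flanks in HMEC and 0.553 times in HMLER, but 1.68 and 2.21 times the genome. At least 4 HMEC UBF peaks were found in 24.5% of 4036 consecutive 750-kb windows, and at least 19 HMLER peaks in 12.9%. The human lists hold no histone mark, so silent and active chromatin could not be described there.

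The 4 HMEC UBF peaks ran from 140306116 to 140307017 (901 bp), from 140740412 to 140740796 (384 bp), from 140810839 to 140811237 (398 bp) and from 140892446 to 140892941 (495 bp). The first lay wholly inside an HMLER peak from 140305415 to 140307395 (1980 bp). The third shared 225 bp with an HMLER peak from 140810236 to 140811064 (828 bp), and the fourth shared 246 bp with one from 140892695 to 140894841 (2146 bp). The second stood 381 bp from the nearest HMLER peak, from 140739416 to 140740031. So 3 of 4 HMEC peaks (75.0%, 19.4 to 99.4) overlapped HMLER, against 56.8% of the whole list, and 3 of 19 HMLER peaks (15.8%, 3.38 to 39.6) overlapped HMEC, against 14.6%.

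**Figure D5:**
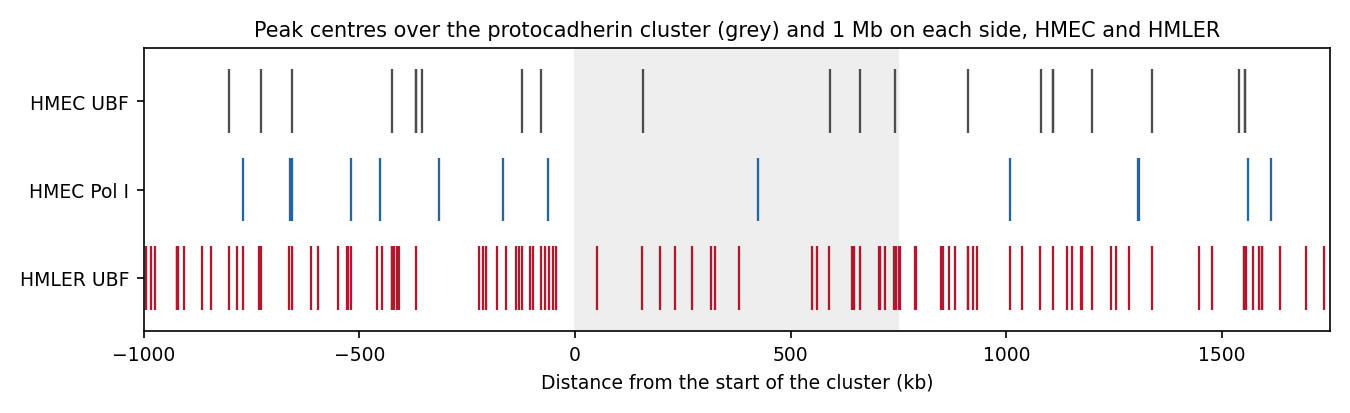
Peak centres of the 3 human lists (rows) against the distance from the start of the cluster in kb, with 1 Mb on each side; the grey band is the cluster, and each line is 1 peak. HMLER has 19 UBF peaks in the band and HMEC has 4, with 1 Pol I peak near the middle.

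HMLER thus had 4.75 times as many UBF peaks in the cluster as HMEC, 4.56 times as many in the flanks and 3.41 times as many in the whole list. The excess in the cluster is therefore close to that of its surroundings. Among only the 9478 widest HMLER peaks, as many as HMEC has in all, 4 lay in the cluster and 24 in the flanks. Of these, 2 of the 4 and 10 of the 24 overlapped an HMEC peak. The share over all 9478 was not computed, so these counts have no background and are not read further. The difference between the lines rests on 1 list each and was not tested.

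The widest HMLER peak of the cluster ran from 140854761 to 140856970 (2209 bp), followed by the peaks from 140892695 and from 140305415 given above. Those from 140867901 to 140869481 (1580 bp), from 140792211 to 140793593 (1382 bp), from 140345473 to 140346850 (1377 bp), from 140888014 to 140889293 (1279 bp) and from 140699607 to 140700833 (1226 bp) came next. The last 2 of the 10 widest were from 140857080 to 140858133 (1053 bp) and from 140810236 to 140811064. The last 50 kb of the locus held 5 of the 19 HMLER peaks and 16.5% of its bases were covered, against 1.8% of the 700 kb before. This split was not planned, and of the 15 bins of 50 kb it sets apart the one with the most HMLER peaks. HMEC had 1 of its 4 peaks in these last 50 kb.

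Pol I had 1 peak in the human locus, in HMEC, from 140573483 to 140573770 (287 bp). The flanks held 13 Pol I peaks, and the median 750-kb window of the genome held 2. The nearest UBF peak stood 166642 bp away in HMEC and 42820 bp away in HMLER. None of the 4 HMEC UBF peaks overlapped Pol I, against 2.72% of the whole list. The longest stretch of the human locus without a peak of any list followed the Pol I peak, from 140573770 to 140699607 (126 kb).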

How the data were processed

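Called peaks of 10 ChIP-seq samples were analysed. The files the authors deposited hold the chromosome, start and end of each peak, with no score, count or p-value. The submitters' processing notes name Picard, BWA, CASAVA 1.8.2 and, as genomes, mm9 and hg19. Not given in the sources used here are the program that called peaks, its threshold, any pooling of replicates, and the treatment of reads mapping to more than 1 place, which bears on near-identical protocadherin exons. Positions are printed as in the files, whose counting origin is not given either.

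With Python 3.11.15, NumPy 2.4.6 and SciPy 1.17.1, a peak was assigned to the cluster if any base lay inside, and an overlap needed at least 1 bp. Flanks were 1 Mb on each side, without peaks of the cluster. Genome counts and covered shares use the autosomes and X up to the last peak of any list of the species. Genome median widths use every peak of the list, on any sequence. Consecutive windows of the cluster's length describe the background. The overlap code was tested on simulated peaks. The members and alternatives were chosen with earlier results of these data known. Peaks named are every UBF and Pol I peak (at most the 10 widest per list), the 5 widest H3K9me3 peaks, the 3 widest of the other lists, the overlaps of H3K9me3 with H3K4me3, and the longest empty stretch; the active sites were named after they were seen. No annotation of either build was used, so promoters were not counted and no sequence is shown.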

Additional observations from a re-analysis of the deposited data

How the results depend on the processing

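Of 114 values recomputed under alternatives for 30 results, 80 stayed within 1.5 times the reported value or, for shares, inside its interval, and 34 moved. The 80 include every alternative for NIH3T3 UBF and Pol I. Their cluster values of 0 could not change under these settings, so they say nothing about stability. In the wider 50% of each list, the cluster kept 12 H3K9me3, 4 H4 hyperacetylation, 3 H3K9ac, 2 H3K4me3 and 5 Pol II peaks in NIH3T3. The HMLER list kept 9 UBF peaks there, and HMEC kept 2 of UBF and 0 of Pol I. In the same lists, the covered share over the flanks was 0.155 for H3K4me3 and 0 for HMEC Pol I. Of the 12 H3K9me3 peaks, 0% met H3K4me3, 0% Pol II and 0% any of these marks, 0% of the 5 Pol II peaks met H3K9me3, both H3K4me3 peaks met H4 hyperacetylation (100%), both HMEC UBF peaks met HMLER (100%), and 7.11% of windows reached the H3K9me3 count. With bounds drawn in by 50 kb, the counts were 2 for Pol II, 7 for H3K9ac and 6 for H4 hyperacetylation, and without the last 80 kb, a setting added with the positions in view, also 2, 7 and 6. Without those 80 kb the covered shares over the flanks were 0.0918 for H4 hyperacetylation, 0.129 for H3K9ac, 0.176 for H3K4me3 and 0.0595 for Pol II. With flanks of 0.5 Mb they were 0.316 for Pol II, 0.173 for H3K9ac, 0.139 for H4 hyperacetylation and 2.19 for H3K9me3. With at least 50% of the peak covered, 3.03% of H3K9me3 peaks met Pol II and 0% of HMLER peaks met HMEC. The median UBF peak of the cluster was 828 bp wide in HMLER and 446 bp in HMEC, which limits the latter share. For the wider lists and for 50% coverage, whole-list overlap shares were not computed. The overlap shares at these settings rest on few peaks and have no background. The reduced HMLER list, also added later, held 4 peaks in the cluster. In every alternative run, the covered share stayed above the flanks for H3K9me3 and below them for Pol II, the active marks and the human lists. The lists give no depth, so the limit it sets is unknown. No paired analysis was possible because each group has 1 list and no result comes from a test.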
